A study of Homo sapiens with 23 samples.

Results

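The tripartite motif (TRIM) family was followed through the early hours of gene delivery with polyethylenimine. Every probe set whose gene symbol in the deposited tables was TRIM followed by a number was taken, which gave 133 of 54675 probe sets and 59 of 20068 genes. Of these, 2 are a pseudogene or carry a pseudogene symbol (TRIM16L and TRIM78P). Each gene was represented by the probe set with the highest mean, and the other 74 probe sets served as a check. HEK293T cells, which derive from human embryonic kidney and express a viral T antigen, received polyplexes of branched 25 kDa polyethylenimine (bPEI) and the plasmid pEGFP-LUC, which encodes a green fluorescent protein (GFP), 18 h after plating. The sample records give the 25 kDa size up to 16 h and not at 24 h. At 2 h, 3 arrays of cells given polyplexes stood against 2 arrays of untreated cells, neither of them sorted. At 8 h, 16 h and 24 h, all cells had met polyplexes, and 3 arrays of sorted GFP-positive cells stood against 3 arrays of sorted GFP-negative cells from each time. A GFP-negative group is therefore not an untreated group, and no untreated cells of these later times were compared here. RNA was purified with Trizol and a column up to 16 h and with Trizol alone at 24 h. The arrays of a group are labelled as biological replicates with no word on separate cultures, so a p-value measures only the spread between these arrays.

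Members of the TRIM family typically have a RING finger, B-boxes and a coiled coil, and many act as ubiquitin ligases through the RING finger. Some members lack the RING finger. They differ in the part that follows, which may be a PRY-SPRY domain that binds other proteins, a PHD finger with a bromodomain that reads chromatin, NHL repeats that bind RNA or protein, or a COS box that binds microtubules. Several members with a PRY-SPRY domain sense or restrict viruses or adjust the signalling that follows when foreign nucleic acid is detected, and a number of TRIM genes are induced by interferon. In bulk RNA, fewer cells that express a gene and less of its RNA per cell cannot be told apart.

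The 24 h arrays went against their labels and are treated apart. The authors' deposited table repeated the labelled group means for all 54675 probe sets at 2 h, at 8 h and at 16 h, within a tolerance of 1e-06, but for 0 probe sets at 24 h. The 24 h log2 fold changes of the labelled groups and of the authors' deposited table correlated across probe sets at r = -0.52. The library labelled GFP-negative replicate 3 correlated more closely with the 3 libraries labelled GFP-positive (r = 0.99427, 0.99226 and 0.99265 for replicates 1 to 3) than with those labelled GFP-negative 1 and 2 (0.98952 and 0.99099), and the library labelled GFP-positive replicate 3 was closest to those labelled GFP-negative 1 and 2 (r = 0.99399 and 0.99556). The 2 h, 8 h and 16 h comparisons were therefore fitted on 17 arrays without those of 24 h, and the fit of all 23 arrays is given where it ended a call. The third GFP-positive array of 8 h carries 16 h in its source name and 8 h in its title and description, and was kept at 8 h.

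Array medians lay between 4.85 and 4.90 at 2 h, 4.66 and 4.71 at 8 h, 4.96 and 5.10 at 16 h, and 4.93 and 4.97 at 24 h on the log2 scale. The difference between the 3′ and the 5′ probe set of ACTB was 2.68 on the first treated array of 2 h and between 1.23 and 1.44 on the other 2 h arrays. It lay between 1.7 and 2.3 at 8 h, between 0.9 and 1.8 at 16 h and between 0.9 and 1.7 at 24 h. At 16 h it rose with replicate number in both groups. Markers of HEK293 cells had mean levels between 7.09 and 8.11, and haematopoietic markers between 4.33 and 4.83. None of the 6 haematopoietic and none of the 5 stromal markers passed in any comparison. Of the 8 HEK293 markers, NEFL, a neurofilament, fell at 2 h (log2 -0.58), and NEFL and ENO2, a neuronal enolase, fell at 8 h (-0.50 and -0.71) and at 16 h (-0.37 and -0.42). In the fit of all 23 arrays NEFL missed the threshold at 2 h, 8 h and 16 h (adjusted p = 0.414, 0.136 and 0.393) and ENO2 at 16 h (0.157). NEFM, another neurofilament, passed at 8 h only with the arrays paired by replicate number (-0.31, adjusted p = 0.283 without and 0.029 with the pairing). The part of these shifts in the results below was not tested.

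By limma with Benjamini-Hochberg adjustment over all genes at 0.05, 2 members passed at 2 h, 13 at 8 h and 4 at 16 h, against 0.737%, 12.4% and 6.33% of all genes. At 8 h, 11 of the 13 fell in GFP-positive cells, where falls also outnumbered rises over all genes (1659 and 829). Between GFP-positive and GFP-negative cells, TRIM66 and TRIM72 rose at 8 h and at 16 h, and TRIM45 and TRIM69 fell at both times. TRIM69 also fell at 2 h, in the separate comparison of treated with untreated cells. Its calls at 2 h and 16 h ended in 9 of 15 and 6 of 16 alternative fits. Those of TRIM72 and TRIM45 at 16 h ended in 7 of 15 and 7 of 16. The median log2 fold change of the 59 members was 0.004 at 2 h, -0.03 at 8 h and -0.06 at 16 h, against -0.004, -0.01 and -0.03 for all genes. Of the members, 12 lay under the array median on every array of all 8 groups, 5 did so in some groups, and 42 in none. A low-value filter kept 40 members.

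**Figure D1:**
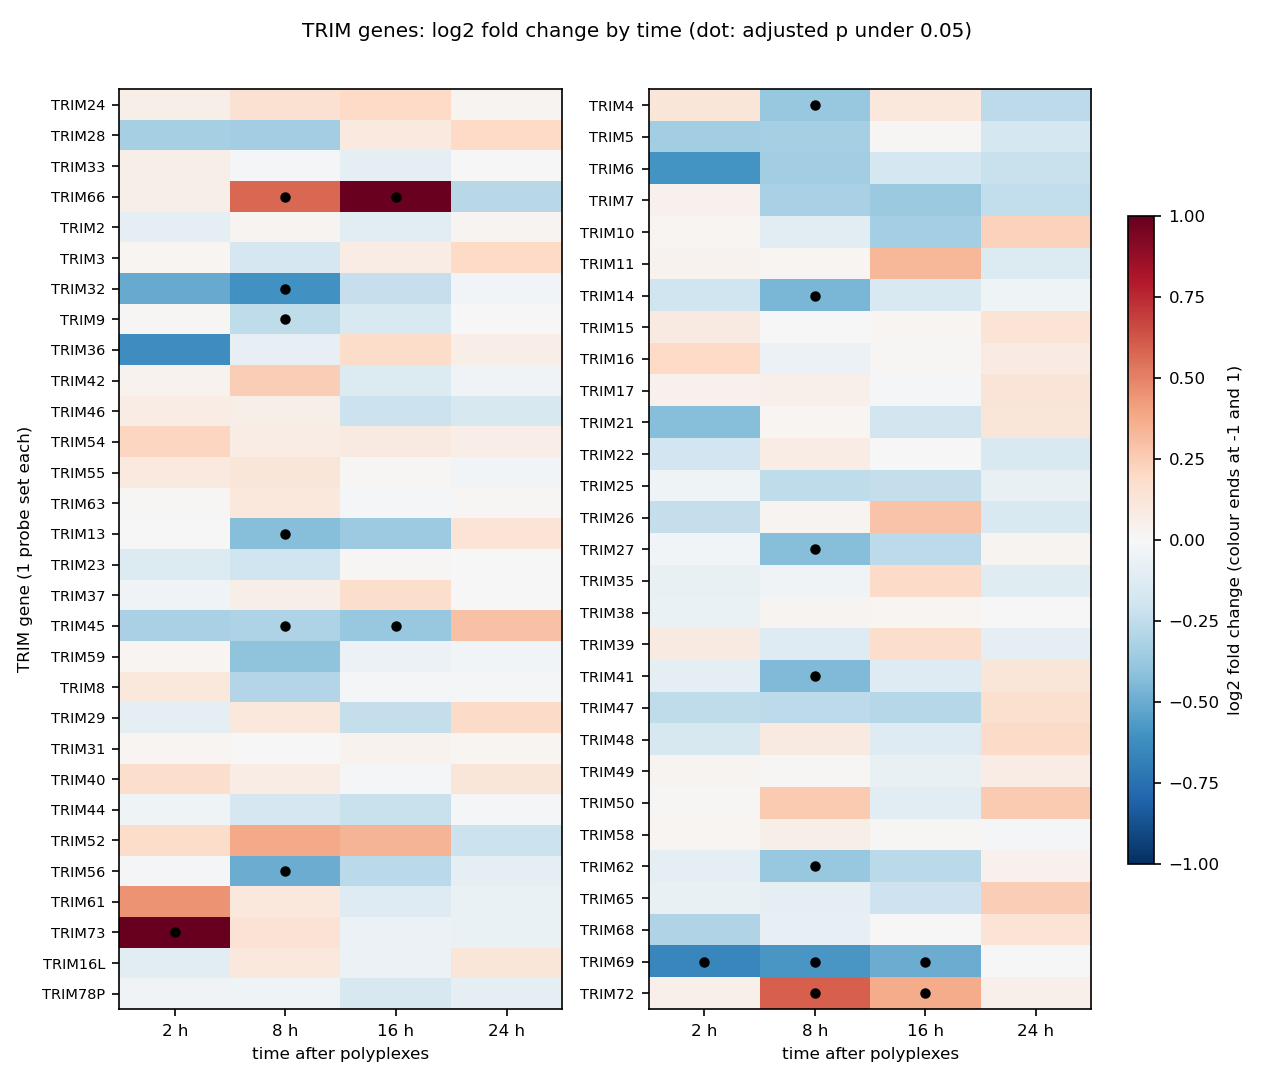
Log2 fold changes of the 59 TRIM genes (rows) at 2 h (treated minus untreated) and at 8, 16 and 24 h (GFP-positive minus GFP-negative), in blue for lower and red for higher. Dots mark an adjusted p under 0.05, which 2, 13, 4 and 0 genes reached. The 24 h column uses the arrays as labelled.

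At 2 h, TRIM73 was higher and TRIM69 lower in cells given polyplexes. The 2 passing members made up 3.39% of the family, against 0.737% of all genes (0.209% higher and 0.528% lower). Over all genes, 42 rose and 106 fell at 2 h, and this split turned with the scaling, to 119 and 88 after centring the arrays on their medians and to 66 and 73 after quantile normalization, where the members' split was 2 and 1, and 1 and 0. TRIM73 is one of several near-identical genes on chromosome 7, and its probe set may also read the copies TRIM50 and TRIM74, so the source of its signal is uncertain. TRIM73 read 6.34 and 5.70 on the untreated arrays and 7.50, 6.91 and 7.71 on the treated arrays. The groups did not overlap, but the untreated arrays themselves lay 0.64 apart. The mean went from 6.02 ± 0.45 (SD, n = 2) to 7.38 ± 0.42 (SD, n = 3), a 2.56-fold rise (log2 1.36, SE 0.21, adjusted p = 0.00832). Without the second untreated array the difference was 1.04 and no longer passed (adjusted p = 0.191), and the 2 h arrays fitted alone gave an adjusted p of 0.321.

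TRIM69, a ligase of the mitotic centrosome that also restricts some RNA viruses, read 5.95 and 6.40 on the untreated arrays and 5.55, 5.51 and 5.49 on the treated arrays. All 3 treated arrays lay close together and below both untreated ones. The log2 fold change was -0.66 (SE 0.14, adjusted p = 0.0345), 1.58-fold lower. That call ended in the fit of all 23 arrays (adjusted p = 0.196), without the second untreated array (-0.43, adjusted p = 0.62) and without treated replicate 1, 2 or 3 (adjusted p = 0.0667, 0.0994 and 0.127), and also with the replicate block (-0.64, adjusted p = 0.142) and after quantile normalization (-0.57, adjusted p = 0.0675). TRIM61 was the next highest with a log2 fold change of 0.45 and an adjusted p of 0.056. It read 5.03 and 4.91 untreated against 5.44, 5.48 and 5.32 treated, with no overlap. TRIM54, a muscle RING protein, followed at 0.22 (adjusted p = 0.639).

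The members with the next lowest values at 2 h did not pass. TRIM36, a ligase that binds microtubules, had a log2 fold change of -0.62 (adjusted p = 0.121), and TRIM6, a neighbour and paralogue of TRIM5, -0.60 (adjusted p = 0.58). The untreated arrays of TRIM6 read 5.55 and 6.27, and the treated arrays 5.47, 5.41 and 5.05. In all, 14 members did not overlap between the groups (23.7%, against 22.2% of all genes), 2 of them higher (3.39%, against 8.94%) and 12 lower (20.3%, against 13.2%). At the unadjusted level of 0.05, 11 members passed (18.6%) against 10.7% of all genes. As many as 19 members (32.2%) had 3 or more equal values among the 5 arrays of 2 h, as did 27% of all genes. TRIM72, for example, read 4.01 on all 3 treated arrays and on the first untreated one.

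At 8 h, 13 of 59 members (22%) passed between GFP-positive and GFP-negative cells, against 12.4% of all genes. Of these, 2 rose (3.39%, against 4.13% of all genes) and 11 fell (18.6%, against 8.27%). In the fit of all 23 arrays 8 members passed (13.6%, against 4.88% of all genes), 2 higher (3.39%, against 1.28%) and 6 lower (10.2%, against 3.6%). Leaving out the second GFP-positive array left 8, a fit for which the share of all genes is not given here. With the arrays paired by replicate number, 15 members passed (25.4%, against 15.3% of all genes), 2 higher (3.39%, against 5.2%) and 13 lower (22%, against 10.1%). With the arrays centred on their medians the split was 3 higher and 9 lower, as it was after quantile normalization. All genes moved further with the scaling, from 829 higher and 1659 lower to 1186 and 1223 after centring and to 1152 and 1211 after quantile normalization.

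Both members that rose are known mainly from other tissues. TRIM66, a chromatin reader of the PHD-bromodomain group that is best known from testis, read 5.38, 5.64 and 5.48 in GFP-negative cells and 5.84, 6.29 and 6.08 in GFP-positive cells at 8 h. Every GFP-positive array lay above every GFP-negative one. The difference was 0.57 (SE 0.13, adjusted p = 0.00721), 1.49-fold. TRIM72, also called MG53, which helps to reseal torn membranes in muscle, read 3.92, 3.86 and 4.11 in GFP-negative cells and 4.41, 4.68 and 4.60 in GFP-positive cells. Its groups were separate as well, and the difference was 0.60 (SE 0.09, adjusted p = 0.000717), 1.52-fold. TRIM72 lay under the array median on every array of 7 of the 8 groups.

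The promoters of these 2 genes are shown because they were the only members that rose at 8 h. The windows run from 250 bases before to 50 after the RefSeq start on GRCh38.p14 and were taken from RefSeq, TRIM66 from chr11:8683182-8683481 on the minus strand and TRIM72 from chr16:31213869-31214168 on the plus strand. Both strands were searched for 4 motifs, namely GGGCGG, which makes a GC box, then TATAAA, the core of a TATA box, then TGACGTCA, the cyclic AMP response element, and the core of the interferon-stimulated response element, which is GAAA followed by any pair of bases and by GAAA again. Neither window held any of them, so no letter is in capitals. The GC content of the windows was 51.3% and 58.7%.
TRIM66: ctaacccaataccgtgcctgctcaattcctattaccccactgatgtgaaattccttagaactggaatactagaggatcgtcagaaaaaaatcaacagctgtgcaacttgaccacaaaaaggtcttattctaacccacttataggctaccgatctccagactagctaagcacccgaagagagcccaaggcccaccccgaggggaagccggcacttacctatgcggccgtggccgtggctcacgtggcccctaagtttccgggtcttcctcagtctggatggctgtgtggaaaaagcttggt
TRIM72: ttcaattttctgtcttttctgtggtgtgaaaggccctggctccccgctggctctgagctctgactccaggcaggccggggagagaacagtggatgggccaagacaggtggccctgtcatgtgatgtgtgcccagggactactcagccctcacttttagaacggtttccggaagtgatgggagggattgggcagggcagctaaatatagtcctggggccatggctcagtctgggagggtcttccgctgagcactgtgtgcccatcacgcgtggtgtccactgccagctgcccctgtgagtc

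**Figure D2:**
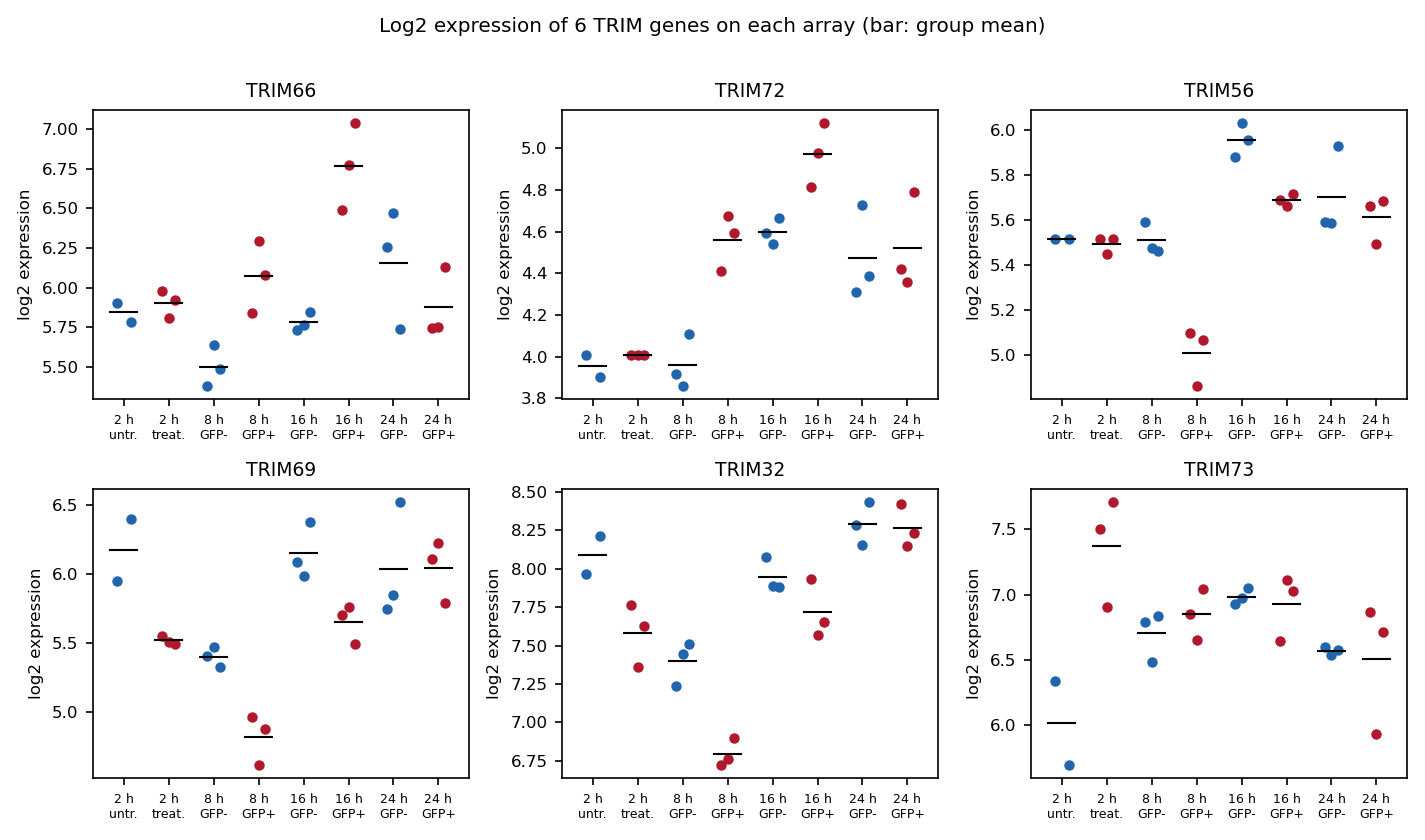
Log2 expression (vertical axis) of TRIM66, TRIM72, TRIM56, TRIM69, TRIM32 and TRIM73 on every array by group, blue for untreated or GFP-negative and red for treated or GFP-positive, with bars at group means. At 8 h the colours are separate for all but TRIM73, and at 24 h, as labelled, they overlap for all 6.

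Among the members that fell at 8 h were regulators of antiviral signalling. TRIM56, a ligase that supports signalling from foreign DNA and double-stranded RNA, read 5.59, 5.48 and 5.46 in GFP-negative cells and 5.10, 4.86 and 5.07 in GFP-positive cells. The groups were 0.36 apart at their nearest, and the difference was -0.50 (SE 0.08, adjusted p = 0.0007), 1.41-fold lower. TRIM14, an adaptor of the antiviral protein MAVS at mitochondria, read 6.61, 6.51 and 6.64 against 6.03, 6.07 and 6.29. It fell by 0.46 (SE 0.10, adjusted p = 0.00559) with no overlap. TRIM69 read 5.41, 5.47 and 5.33 against 4.96, 4.62 and 4.88, a difference of -0.58 (SE 0.12, adjusted p = 0.00561). TRIM4, which ubiquitinates the RNA sensor RIG-I, fell by 0.38 (SE 0.10, adjusted p = 0.0246), and TRIM27, a ligase and repressor first found as a fusion partner of RET, fell by 0.43 (SE 0.08, adjusted p = 0.0029). TRIM41, a ligase reported to act on protein kinase C, fell by 0.44 (SE 0.09, adjusted p = 0.00366). None of these groups overlapped on the array values.

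Other antiviral members did not pass at 8 h. TRIM25, the best known ligase of RIG-I, read 7.78, 7.87 and 7.48 in GFP-negative and 7.32, 7.50 and 7.55 in GFP-positive cells, with overlap (-0.25, adjusted p = 0.173). TRIM21, the cytosolic antibody receptor, differed by 0.02, TRIM22, an interferon-induced restriction factor, by 0.07 and TRIM5, which binds retroviral capsids, by -0.33 (adjusted p = 0.958, 0.708 and 0.139). TRIM22 lay under the array median on all arrays. Of the 29 members with a PRY-SPRY domain, 1 rose (TRIM72) and 6 fell (TRIM4, TRIM14, TRIM27, TRIM41, TRIM62 and TRIM69), against 4.13% of all genes that rose and 8.27% that fell, and their median was -0.09.

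TRIM69 and TRIM14 were also among the 8 of 45 members with a promoter window that held the core of the interferon-stimulated response element on either strand (17.8%, against 3.57% of 35116 RefSeq windows). The others were TRIM2, TRIM5, TRIM16, TRIM21, TRIM26 and TRIM44. Of the 8, 2 fell at 8 h and 0 rose, against 8.27% and 4.13% of all genes, with a median of -0.11 and a range from -0.58 to 0.03. The windows of the pair that fell are printed with every motif match in capitals, TRIM69 from chr15:44736278-44736577 on the plus strand and TRIM14 from chr9:98119173-98119472 on the minus strand. The match is TTTCTCTTTC in TRIM69 and TTTCGGTTTC in TRIM14, both read on the opposite strand. TRIM14 also has 4 GC boxes, of which a pair of neighbours runs together. A match describes these letters and shows no binding.
TRIM69: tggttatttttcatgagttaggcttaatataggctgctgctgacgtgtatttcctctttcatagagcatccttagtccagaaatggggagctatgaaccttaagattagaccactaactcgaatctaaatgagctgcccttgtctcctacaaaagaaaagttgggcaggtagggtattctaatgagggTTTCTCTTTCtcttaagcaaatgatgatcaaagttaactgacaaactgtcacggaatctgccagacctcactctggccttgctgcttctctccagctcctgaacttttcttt
TRIM14: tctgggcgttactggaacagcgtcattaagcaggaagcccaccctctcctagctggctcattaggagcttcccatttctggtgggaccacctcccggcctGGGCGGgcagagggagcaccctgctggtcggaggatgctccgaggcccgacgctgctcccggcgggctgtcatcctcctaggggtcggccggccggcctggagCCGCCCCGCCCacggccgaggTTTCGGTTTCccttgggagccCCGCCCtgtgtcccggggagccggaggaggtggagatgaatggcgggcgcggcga
GC boxes stood in 24 of 45 member windows (53.3%) and in 45% of all windows, TATA boxes in 4 (TRIM31, TRIM46, TRIM48 and TRIM63, 8.89% against 11.5%) and the cyclic AMP response element in 0, against 1.85% of all.

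Of the 3 members with NHL repeats, 1 fell at 8 h, against 8.27% of all genes. TRIM32, a ligase whose loss causes a limb-girdle muscular dystrophy, read 7.24, 7.44 and 7.51 in GFP-negative cells and 6.72, 6.76 and 6.90 in GFP-positive cells. The groups were separate, and the difference of -0.60 (SE 0.12, adjusted p = 0.00362), 1.52-fold lower, was the lowest of any member at 8 h. TRIM2 and TRIM3, the other two, which act in neurons, differed by 0.03 and -0.16 (adjusted p = 0.904 and 0.406). In the separate comparison of treated with untreated cells at 2 h, TRIM32 differed by -0.50 without passing (adjusted p = 0.0976).

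Of the 5 members with a MATH, ARF, filamin or transmembrane part, 2 fell at 8 h, against 8.27% of all genes. These parts are unlike each other, and the members were put together only for counting. TRIM13, a ligase anchored in the endoplasmic reticulum, read 7.90, 7.85 and 7.93 against 7.56, 7.22 and 7.62 and fell by 0.43 (SE 0.11, adjusted p = 0.0207). TRIM45, which carries a filamin repeat and dampens MAP kinase signalling, read 6.07, 6.07 and 5.93 against 5.82, 5.63 and 5.72 and fell by 0.30 (SE 0.09, adjusted p = 0.0304). Both were lower on every GFP-positive array. TRIM59, another membrane-anchored member, passed only with replicate numbers as a block (-0.40, adjusted p = 0.0614 without and 0.0116 with the block), as did TRIM7, a ligase that binds glycogenin (-0.32, 0.348 and 0.0456). TRIM23, which has an ARF part, differed by -0.20 (adjusted p = 0.407).

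TRIM62, a ligase tied to cell polarity, fell by 0.38 (SE 0.11, adjusted p = 0.0374), and TRIM9, a brain ligase with a COS box, fell by 0.26 (SE 0.08, adjusted p = 0.043). TRIM9 was the smallest of the calls. The 3 other members with a COS box and a fibronectin repeat, TRIM36, TRIM42 and TRIM46, differed by -0.08, 0.25 and 0.06 and did not pass. The muscle RING members TRIM54, TRIM55 and TRIM63 differed by between 0.07 and 0.12. Among the PHD-bromodomain members, TRIM28, the corepressor of KRAB zinc finger proteins, differed by -0.35 (adjusted p = 0.112), TRIM24 by 0.15 and TRIM33 by -0.01. TRIM28 read 9.66, 9.93 and 10.21 in GFP-negative cells and 9.71, 9.66 and 9.38 in GFP-positive cells, so its groups overlapped. TRIM52, a fast-evolving member, was the third highest at 0.38 without passing (adjusted p = 0.0898), and passed after centring (0.43, adjusted p = 0.0374) and after quantile normalization (0.51, adjusted p = 0.0149).

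The calls at 8 h were not equally firm. TRIM14, TRIM32 and TRIM56 passed in all 16 alternative fits, and TRIM72 in the 15 that tested it. For these members the probe set of highest spread was the kept one, so that alternative tested no other probe set. TRIM56 and TRIM72 have only 1 probe set. The other probe sets of TRIM14 differed by -0.26, -0.12 and -0.05 at 8 h, and that of TRIM32 by -0.29. TRIM27, TRIM41, TRIM66 and TRIM69 missed only when the replicate block was combined with all 23 arrays (adjusted p = 0.0552, 0.0961, 0.0902 and 0.139). TRIM4, TRIM9, TRIM13, TRIM45 and TRIM62 also missed in the fit of all 23 arrays (adjusted p = 0.0784, 0.0811, 0.0727, 0.193 and 0.0804), and in 8, 12, 6, 10 and 9 of the 16 alternatives in all. All 5 missed without the second GFP-positive array (adjusted p = 0.119, 0.0992, 0.115, 0.123 and 0.131). Without GFP-negative replicate 3, the values were 0.0876 for TRIM4, 0.188 for TRIM9, 0.0643 for TRIM13 and 0.0936 for TRIM62. Without GFP-negative replicate 1 they were 0.0539 for TRIM9, 0.0808 for TRIM45 and 0.0879 for TRIM62, and without GFP-negative replicate 2 they were 0.0519 for TRIM4, 0.0883 for TRIM45 and 0.0601 for TRIM62. Leaving out GFP-positive replicate 1 ended the call of TRIM9 (0.133), and leaving out GFP-positive replicate 3 those of TRIM45 (0.0708) and TRIM62 (0.097). TRIM4 differed by only -0.07 on its probe set of highest spread (adjusted p = 0.888). Groups did not overlap for 22 members (37.3%, against 27.6% of all genes), 6 higher (10.2%, against 11.4%) and 16 lower (27.1%, against 16.2%).

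At 16 h, 4 members passed (6.78%), against 6.33% of all genes. TRIM66 and TRIM72 rose (3.39%, against 3.56% of all genes), and TRIM45 and TRIM69 fell (3.39%, against 2.77%). TRIM66 read 5.73, 5.77 and 5.85 in GFP-negative cells and 6.49, 6.77 and 7.04 in GFP-positive cells. The gap of 0.65 between the nearest arrays was wider than the whole GFP-negative group. Means were 5.78 ± 0.06 and 6.77 ± 0.27 (SD, n = 3 each), a difference of 0.99 (SE 0.13, adjusted p = 0.000218), 1.98-fold. TRIM66 was the only member to pass at 16 h in the fit of all 23 arrays (adjusted p = 0.029), where 0.0997% of all genes passed.

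TRIM72 read 4.59, 4.54 and 4.67 against 4.82, 4.98 and 5.12 at 16 h, a rise of 0.37 (SE 0.09, adjusted p = 0.0251). TRIM45 read 6.61, 6.58 and 6.84 against 6.36, 6.24 and 6.29, a difference of -0.38 (SE 0.09, adjusted p = 0.0149). TRIM69 read 6.09, 5.99 and 6.38 against 5.70, 5.76 and 5.49, a difference of -0.50 (SE 0.12, adjusted p = 0.0221). All 3 were separate between the groups, and all 3 missed the threshold in the fit of all 23 arrays (adjusted p = 0.178, 0.209 and 0.187). Without the third GFP-negative array only TRIM66 and TRIM72 passed, and without the third GFP-positive array only TRIM66. Without that GFP-positive array TRIM72 differed by 0.30 (adjusted p = 0.131), TRIM69 by -0.42 (0.113) and TRIM45 by -0.37 (0.0549), and without that GFP-negative array TRIM69 by -0.39 (0.115) and TRIM45 by -0.30 (0.0822). Without the second GFP-positive array TRIM72 and TRIM45 missed (adjusted p = 0.0671 and 0.0557), and TRIM72 missed without GFP-negative replicate 1 or 2 (0.0556 and 0.109). On the probe set of highest spread TRIM45 differed by -0.15 at 16 h (adjusted p = 0.651). With the arrays paired by replicate number TRIM69 missed the threshold at 16 h, while TRIM66, TRIM72 and TRIM45 passed.

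The other members did not pass at 16 h. TRIM56 was lower by -0.27 and stood just outside the threshold (adjusted p = 0.0511), as did TRIM27 (-0.26, adjusted p = 0.0647) and TRIM13 (-0.37, adjusted p = 0.0653). TRIM7 was the third lowest at -0.37 (adjusted p = 0.337), with SDs of 0.33 and 0.42. TRIM52 was the third highest at 0.34 (adjusted p = 0.186). TRIM25, TRIM21 and TRIM5 differed by -0.23, -0.18 and 0.01, and TRIM24, TRIM28 and TRIM33 by 0.20, 0.09 and -0.09, none passing. Groups did not overlap for 18 members (30.5%, against 23.8% of all genes), 5 higher (8.47%, against 10.3%) and 13 lower (22%, against 13.6%). With the arrays centred, TRIM13 and TRIM26, a ligase of the major histocompatibility region, also passed, 3 higher and 3 lower in all. Paired by replicate number, TRIM7, TRIM11, TRIM13 and TRIM26 passed at 16 h (adjusted p = 0.0385, 0.0239, 0.0247 and 0.0492).

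The GFP effects at 8 h and at 16 h come from different arrays. Of the 13 members that passed at 8 h, 12 had the same sign at 16 h (92.3%), against 90.1% of the 2488 genes that passed at 8 h. TRIM4 was the exception, at -0.38 and 0.10. Of the 13, 4 passed at both times in 1 direction (30.8%, against 29.8% of all genes). Across the 59 members the effects at 8 h and 16 h correlated at r = 0.61, and across all genes at r = 0.60, where genes share arrays and are not independent. The difference between the GFP effects was tested itself, and 0 of 59 members passed (0% of all genes), with 7 members (11.9%) and 10.5% of all genes at an unadjusted p under 0.05. The members that differed most were TRIM4 (0.48, adjusted p = 0.325), TRIM28 (0.44, 0.442) and TRIM66 (0.42, 0.434) toward higher, and TRIM42 (-0.38, 0.532), TRIM50 (-0.37, 0.488) and TRIM29 (-0.35, 0.538) toward lower.

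**Figure D3:**
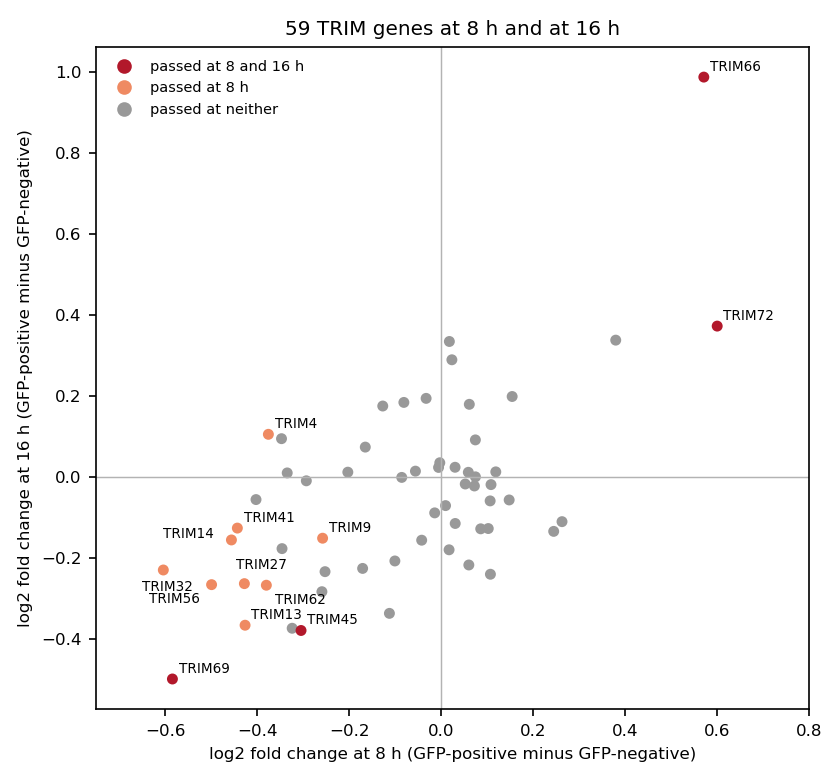
Log2 fold change of GFP-positive over GFP-negative cells at 8 h (horizontal) and at 16 h (vertical) for the 59 TRIM genes, 1 point each, coloured by the adjusted p under 0.05. TRIM66 and TRIM72 stand at the upper right, and 10 of the 11 members that fell at 8 h lie below 0 at 16 h, all but TRIM4.

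At 24 h, with the arrays as labelled, 0 members passed, as did 0% of all genes, and 2 members (3.39%) against 6.89% of all genes had an unadjusted p under 0.05. The highest were TRIM45 (0.29), TRIM50 (0.26) and TRIM65 (0.25), and the lowest TRIM66 (-0.28), TRIM4 (-0.26) and TRIM7 (-0.25). TRIM66 read 6.26, 6.47 and 5.74 on the arrays labelled GFP-negative and 5.75, 5.75 and 6.13 on those labelled GFP-positive, with the third array of each label on the far side. The authors' deposited table gave TRIM66 a log2 fold change of 0.59 at 24 h with a posterior probability of 0.969. A posterior of 0.95 was exceeded in the authors' deposited table by 4 members (6.78%, against 5.02% of all genes). They were TRIM66, TRIM26 (0.58), TRIM11, a ligase that degrades misfolded proteins (0.50), and TRIM47 (-0.55), and TRIM65, a ligase of the RNA sensor MDA5 and the neighbour of TRIM47, was just under it at -0.49. Without the third array labelled GFP-positive, TRIM45 and TRIM65 passed as higher (0.47 each, adjusted p = 0.0371 and 0.0348). The authors' deposited table gave them -0.22 and -0.49. Of the members that passed at 8 h, the authors gave TRIM32, TRIM69 and TRIM72 a posterior above 0.95 (0.983, 0.955 and 0.972). The others lay between 0.142 (TRIM9) and 0.91 (TRIM41). Of those that passed at 16 h, TRIM66 exceeded 0.95 (0.998), and TRIM72, TRIM45 and TRIM69 did not (0.487, 0.342 and 0.669). At 2 h TRIM69 exceeded it (0.971) and TRIM73 did not (0.531).

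The other probe sets of a gene can read other transcripts, and some differed from the one kept. At 2 h, 3 of the 74 other probe sets passed when all probe sets were tested (4.05%, against 0.545% of all probe sets), 0 higher and 3 lower, against 0.212% and 0.333% of all. They belonged to TRIM9 (-1.10, adjusted p = 0.0197), TRIM14 (-0.56, adjusted p = 0.0202) and TRIM45 (-0.74, adjusted p = 0.047), whose kept probe sets differed by 0.02, -0.20 and -0.32 without passing. None of the 3 passed in the fit of all 23 arrays (adjusted p = 0.066, 0.192 and 0.174). The TRIM9 set was low, at 4.20 and 4.15 untreated, under the array median. On the treated arrays it read 3.21, 3.30 and 2.71, under the first quartile. At 8 h, 9 of the 74 passed (12.2%, against 6.89% of all probe sets), 3 higher and 6 lower, against 2.75% and 4.14% of all. At 16 h 6 did (8.11%, against 4.44%), 2 higher and 4 lower, against 2.47% and 1.97%. The largest difference at 8 h and at 16 h was on a second probe set of TRIM37, a MATH-domain ligase that controls centrosome number. It read 6.65, 6.31 and 6.51 in GFP-negative and 7.39, 7.42 and 7.63 in GFP-positive cells at 8 h, and 7.15, 7.10 and 7.13 against 7.87, 7.93 and 8.42 at 16 h. The groups were far apart at both times, with differences of 0.99 (SE 0.14, adjusted p = 0.000482) and 0.95 (SE 0.14, adjusted p = 0.000762). In the fit of all 23 arrays the adjusted p was 0.0549 at 8 h and 0.135 at 16 h. The kept probe set of TRIM37 differed by 0.06 and 0.18 and did not pass. The second probe set was higher at 24 h as well in the authors' deposited table, by 0.89 with a posterior of 0.999, where the arrays as labelled gave -0.30 (adjusted p = 0.797).

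TRIM66 was higher on all 3 of its probe sets at 8 h (0.57, 0.46 and 0.31), and another passed beside the kept one at 8 h (adjusted p = 0.0146) and at 16 h (0.67, adjusted p = 0.00176). All 3 probe sets of TRIM27 fell at 8 h (-0.43, -0.54 and -0.73). TRIM13 was lower on all 4, from -0.43 to -0.87, and 2 of them passed. TRIM11 was split, with another probe set lower at 8 h and 16 h (-0.69 and -0.51, adjusted p = 0.00139 and 0.0134) and the kept set at 0.02 and 0.33. The other probe sets of TRIM69 differed by 0.20 and -0.01 at 8 h, so its fall rests on the kept probe set alone. TRIM44, a member without a RING finger, fell on another probe set (-0.43, adjusted p = 0.0115) and differed by -0.17 on the kept set. Of the 10 members that passed at 8 h and have other probe sets, 7 had every probe set on 1 side of 0.

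**Figure D4:**
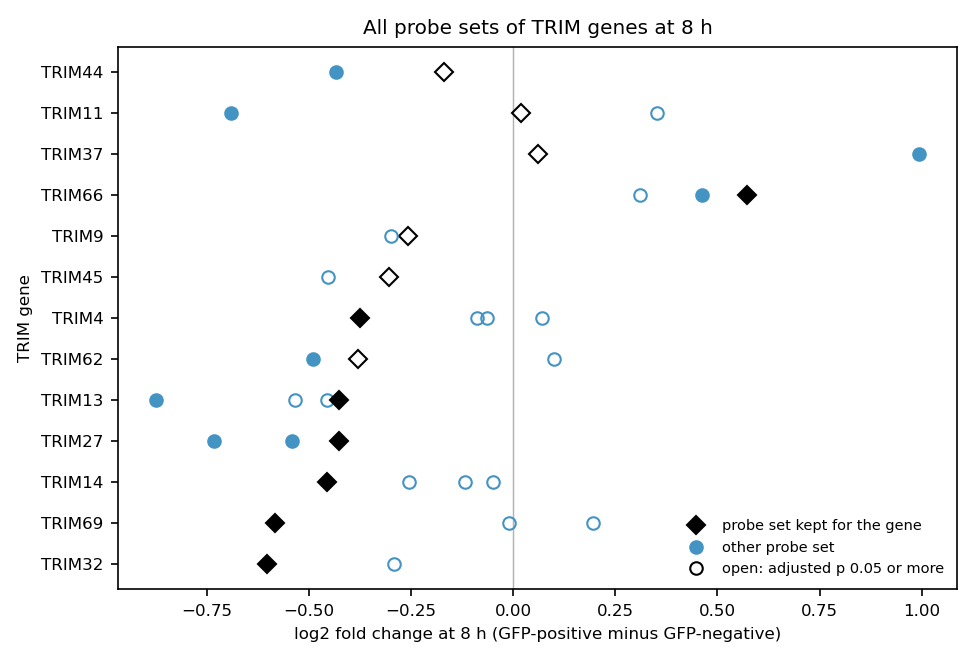
Log2 fold change at 8 h (horizontal, GFP-positive minus GFP-negative) of every probe set of the passing TRIM genes with several probe sets and of TRIM37, TRIM11 and TRIM44. Diamonds mark the probe set kept for the gene, circles the others, and filled symbols an adjusted p under 0.05 when all probe sets are tested. TRIM37 shows a set at 0.99 beside the kept one at 0.06, and TRIM27 is filled on all 3.

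Genes that work with the family were read in the same fits. Over all genes, 0.209% rose at 2 h, 8.27% fell at 8 h and 2.77% fell at 16 h. Of 16 genes of the RIG-I and interferon route, 1 rose at 2 h, ISG15, an interferon-induced ubiquitin-like protein (0.65, adjusted p = 0.042, and 0.129 in the fit of all 23 arrays). At 8 h, 2 fell, MAVS, the mitochondrial adaptor of RIG-I (-0.41, adjusted p = 0.00875, and 0.132 with all 23 arrays), and IRF3, the transcription factor it activates (-0.50, adjusted p = 0.037 and 0.148). With the arrays paired by replicate number IRF3 missed the threshold (adjusted p = 0.0555). At 16 h MAVS fell again (-0.41, adjusted p = 0.0145 and 0.238). The median of the 16 was -0.02 at 2 h, -0.02 at 8 h and -0.08 at 16 h, close to that of all genes. IFIT1, an interferon-induced RNA binder, differed by -0.56 at 8 h and passed only with the pairing (adjusted p = 0.0631 without and 0.0158 with it). Of 11 partners of TRIM28 in gene repression, 1 fell at 8 h, CBX5, a heterochromatin protein (-0.60, adjusted p = 0.0329, but 0.0595 with the pairing and 0.0893 with all 23 arrays), and 0 passed at 2 h or 16 h. Of 4 family members known by other symbols, MID2, a microtubule ligase, fell at 8 h (-0.62, adjusted p = 0.00055, and 0.00477 with all 23 arrays), while MID1, PML and MEFV did not pass.

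Neighbouring members on a chromosome did not always go together. TRIM5 and TRIM6, next to each other on chromosome 11, differed by -0.33 and -0.35 at 8 h and by 0.01 and -0.18 at 16 h. TRIM7 and TRIM41 on chromosome 5 were both lower at 8 h (-0.32 and -0.44), with TRIM41 alone passing. In the histocompatibility region on chromosome 6, the neighbouring members were TRIM31, TRIM40, TRIM10, TRIM15, TRIM26 and TRIM39. They ranged from -0.13 to 0.07 at 8 h and from -0.34 to 0.29 at 16 h, and none passed. TRIM27 and TRIM38, the other members on chromosome 6, have no member as a neighbour. At 8 h TRIM27 fell (-0.43), and TRIM38 differed by 0.03 without passing.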

How the data were processed

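Expression was measured on 23 Affymetrix arrays. The deposited values are log2 expression per probe set, made by the authors with RMA, which corrects background, normalizes by quantiles and summarises probes, in R 2.11.1 or 2.9.0, per the submitters' processing notes. The authors' deposited tables also give group means, log2 fold changes and a posterior probability, a score from 0 to 1, for each probe set. A genome build is not given in the sources used here, and scanner intensities were not used here.

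Of 54675 probe sets, 41717 had a symbol. Each of 20068 genes was tested on its probe set with the highest mean, with limma 3.58.1 (lmFit, eBayes) in R 4.3.3, two-sided, on group means, with Benjamini-Hochberg adjustment over all genes at 0.05. Passing, rising or falling refers to that threshold. Comparisons at 2 h, 8 h and 16 h used 17 arrays and those at 24 h all 23 arrays. The 24 h arrays were kept in their labelled groups. No pair of arrays held identical values. Each log2 fold change compares a probe set with itself across arrays. Levels of different probe sets were set together in the choice of probe set, the marker levels, the array medians and the low-value filter. The number of arrays limits the precision.

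In the check of pairing, same-numbered GFP-positive and GFP-negative arrays deviated together across genes at 8 h (r = 0.257, 0.29 and 0.35, all above 0.1). At 16 h the same-numbered pairs were positive as well (0.243, 0.0932 and 0.29), the second of them just under 0.1. Each was above every pair of unlike number at 16 h, of which the highest was 0.0289. Blocked results are therefore given at 8 h, and for the members at 16 h, where the call changed.

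The fit was tested on simulated data with 200 changed genes. At 8 h it recovered 96% of changes of log2 1 and 60% of log2 0.5, and 4.29% of its calls were false. The recovered shares were 96% and 47% at 2 h, and 99% and 60% at 16 h. The noise was normal and independent between genes, and fewer genes were changed than passed at 8 h, so shares in the data may differ. Changes smaller than log2 0.5, such as many of the 8 h calls, were not simulated.

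The members and lists were chosen with earlier results of these data known. Members with values in the text are those that passed, the 3 highest and 3 lowest of each comparison, and members listed by function. Others named beside them were chosen after their values were seen. The lists were the RIG-I and interferon route, the partners of TRIM28, family members under other symbols, and haematopoietic, stromal and HEK293 markers. Promoters were matched by symbol to RefSeq for 45 members. TRIM67, TRIM71 and TRIM74 were not analysed here. Alternatives covered the arrays in the fit, the block, scaling, a filter that left out the lower 40% of genes, array weights, the choice of probe set and each replicate left out.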

Additional observations from a re-analysis of the deposited data

How the results depend on the processing

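No member that passed at 2 h, 8 h or 16 h changed direction in any alternative fit of that comparison. With the probe set of highest spread, TRIM9 passed at 2 h (-1.10) and TRIM11 at 8 h and 16 h (-0.69 and -0.51). Each lay on the other side of 0 from the kept probe set, which had not passed. The highest-spread set of TRIM9 lay under the array median on every 2 h array. At 2 h, where 2 members passed, 1 passed with all 23 arrays, 0 with the 2 h arrays alone, 1 with the replicate block and all 23 arrays, 1 after quantile normalization, 6 with array weights and 4 with the probe set of highest spread. Leaving out a replicate gave 0 to 2, with 0 without the second untreated array and 1 without the second or the third treated array. The replicate block gave 2 at 2 h, TRIM73 and TRIM61. Over all genes at 2 h, 42 higher and 106 lower calls became 119 and 88 after centring the arrays and 66 and 73 after quantile normalization, and the members' split of 1 and 1 became 2 and 1, and 1 and 0. Centring moved the median of all genes at 2 h to 0.08. At 8 h, 13 became 8 with all 23 arrays and 5 with the replicate block and all 23 arrays, and ranged from 8 to 12 with a replicate left out (8 without the second GFP-positive array). At 16 h, 4 became 1 with all 23 arrays, 1 with the 16 h arrays alone, 7 with the replicate block and 0 with the block and all 23 arrays, and 1 to 5 with a replicate left out (1 without the third GFP-positive array, 2 without the third GFP-negative array). The block at 16 h added TRIM7, TRIM11, TRIM13 and TRIM26 and lost TRIM69 (adjusted p = 0.0516). At 24 h, 0 became 3 with array weights and 0 to 2 with a replicate left out (2 without the third array labelled GFP-positive, where 871 genes passed). For the difference between 16 h and 8 h, 0 members passed in every fit, the replicate block included. Over all genes, calls at 8 h fell from 2488 to 979 with all 23 arrays and those at 16 h from 1270 to 20, while the block gave 3075 and 1633. For most other fits, array weights and the probe set of highest spread among them, counts of all genes are not given here. The member counts of those fits can therefore not be set against all genes. The filter on low values left out TRIM72, so no value for it is given there. The fit of 17 arrays was chosen because the 24 h labels and means disagree, and the fit of all 23 arrays adds the spread within those labels. The part of that spread in the changed calls was not tested, and neither was the cause of the other changes. The 2 untreated arrays and groups of 3 limit what could pass.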
